A study of Mus musculus with 12 samples.

Results

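The connexin gap junction genes examined here were Gjb2, Gjb6, Gjb1, Gja1, Gja4, Gja5, Gjc1 and Gjc3. They were taken as the probes whose gene name on the array equals one of these symbols, which gave 8 of 19505 genes and 12 of 165984 probes. The samples were cochleae of male C57BL/6 mice aged 6 weeks, with no transgene or treatment, cut into the apical, middle and basal turns. Each turn was measured on 4 single-color exon arrays made from 25 ng of total RNA per sample. The pieces were whole turns after removal of the otic capsule, so that sensory epithelium, ganglion and lateral wall with its stria and fibrocytes were measured together. All 8 bone markers examined were well above background. The protocol names 4 mice for the 12 samples, so that samples share animals, but the labels do not say which sample came from which mouse. The main tests treated the arrays as unpaired, and p-values measure only the spread between these samples.

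A connexin is a membrane protein that assembles into a hemichannel, and hemichannels of neighboring cells dock to form gap junctions, through which ions and small molecules pass. In the cochlea, the Gjb2 product (Cx26) and the Gjb6 product (Cx30) form the channels that couple supporting cells of the organ of Corti to each other and fibrocytes of the spiral ligament to the stria vascularis. These networks carry potassium back toward the endolymph, and variants of GJB2 are a frequent cause of inherited deafness. The other genes belong to other cells: Gjb1 (Cx32) and Gjc3 (Cx29) to myelinating Schwann cells, Gja4 (Cx37) and Gja5 (Cx40) to blood vessels, Gjc1 (Cx45) to smooth muscle and some neurons, and Gja1 (Cx43) to many tissues, bone included.

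The values below rest on these oligonucleotides. Each probe is 60 bases long, and its first 30 bases are shown in lower case because each gene's measurement is what these probes bind. Positions are those in the array files, on mm9.

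Gjb2, chr14:57717629-57717688, minus strand: caagttgaaccattaccactatgccttatg
Gjb6, chr14:57742226-57742285, minus strand: ttcattggacaatatacattgccgattgct
Gja1 near the 5′ end, chr10:56097212-56097271, plus strand: tgaaactttaaacagacaggtctgagagcc
Gja1 near the 3′ end, chr10:56109814-56109873, plus strand: ctacacattaactcagaacttgtattctga
Gja4, chr4:126988848-126988907, minus strand: acccagcgccaagttgactttcgagcctcc
Gjc1, chr11:102661010-102661069, minus strand: gttgtgtcttccagatccagagaagaactg
Gjc3, first probe, chr5:138404244-138404303, minus strand: tgagggcagggtcctctggtccttcagttg
Gjc3, the third probe, chr5:138398440-138398499, minus strand: gtaagatccaaggacacaaccgatgaattg

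Gjb2 and Gjb6 lie side by side on chromosome 14, and their probes are 24.5 kb apart. The probe of Gjb1 lies at chrX:98580902-98580961 and that of Gja5 at chr3:96857349-96857408, both on the plus strand. The second Gjc3 probe lies at chr5:138404098-138404157 and the fourth at chr5:138395037-138395096, both on the minus strand. The first Gjc3 probe was designed on another transcript than the other 3. Probes of one gene share its RNA and are not replicates. Exons and untranslated regions were not annotated here.

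Values are fluorescence intensities after the 75th percentile of each array was brought to a common level, in arbitrary units, and values of different genes are not compared because each probe has its own brightness. Summed signals of marker lists, given below, weigh the brightest genes of a list most. No connexin spot was saturated. All genes except Gja5 were well above background with at least 1 probe on every array of some turn (7 of 8 genes). Differences are on the log2 scale and were tested with limma, a linear model with moderated errors, over all genes of the array. A gene was called at a Benjamini-Hochberg adjusted p under 0.05. Because every slide carried arrays of 1 turn, slide and turn cannot be told apart in any comparison. In whole tissue, fewer cells of a type and less RNA per cell cannot be told apart either.

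Between the apical and basal turns, 4 of the 8 connexin genes were called, and all 4 (Gjb2, Gjb6, Gja1 and Gja4) were higher in the basal turn. Of all genes, 39.2% were called in this comparison, 21.6% higher in the basal turn and 17.6% higher in the apical turn. The median log2 difference of the connexins, apical minus basal, was -0.51, against -0.04 over all genes. Between the apical and middle turns 2 were called, Gjb6 and Gjc3, both higher in the middle turn, where 12% of all genes were called, 7.59% higher in the middle turn and 4.42% higher in the apical turn. Between the middle and basal turns 4 were called: Gjb2 and Gjb6 were higher in the basal turn, as were 9.21% of all genes, and Gjc3 and Gjc1 were higher in the middle turn, as were 11.7% of all genes, with 20.9% called in either direction. The medians of the connexins were -0.20 for apical minus middle and -0.30 for middle minus basal, against -0.07 and 0.04 over all genes. No connexin was called with a change of 2-fold or more, which 4.47%, 0.39% and 2.66% of all genes were in the 3 comparisons. Arrays of the turns compared did not overlap for 38.3% of all genes between the apical and basal turns, 20.8% between apical and middle and 24.1% between middle and basal. These shares are the background for each statement on overlap of a gene that follows. For single probes and for ratios no such share was tallied.

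**Figure D1:**
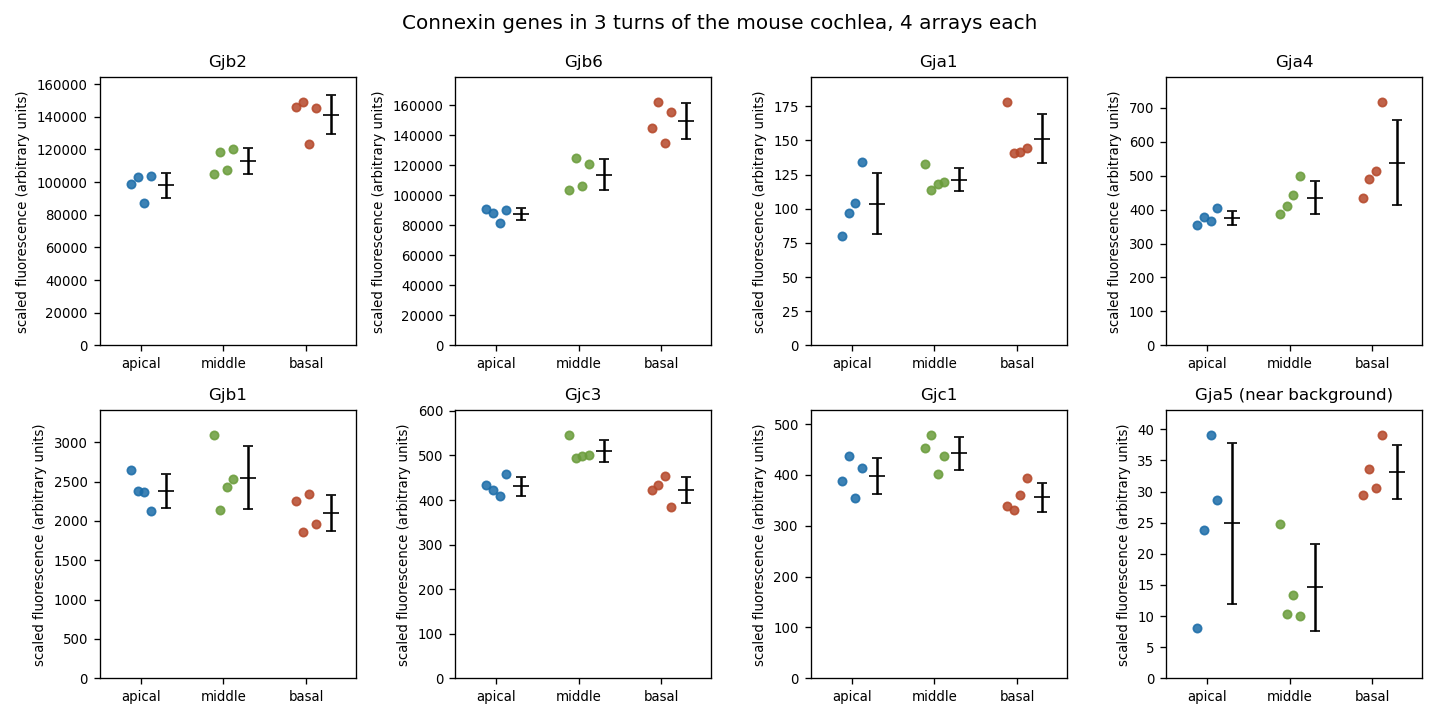
Scaled fluorescence (arbitrary units, vertical axis from 0) of the 8 connexin genes in the apical, middle and basal turns. Each point is an array, and the bar beside the points gives the mean and SD of 4 arrays. Gjb2 and Gjb6 climb from the apical to the basal turn without overlap, Gjc3 is highest in the middle turn, and Gja5 stays near background.

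Gjb2 was lowest in the apical turn and highest in the basal turn. In the apical turn its 4 arrays read 98542, 103300, 87115 and 103478. In the middle turn they read 104765, 118335, 107271 and 120496, and in the basal turn 146223, 149283, 123475 and 145646. No array of one turn overlapped another turn. The mean was 98109 ± 7678 for apical, 112717 ± 7853 for middle and 141157 ± 11896 for basal arrays (SD, n = 4). The basal turn was 1.44-fold above the apical turn, a log2 difference of -0.52 (SE 0.081, limma adjusted p = 0.000488, apical minus basal). The middle turn was 1.25-fold below the basal turn (log2 difference -0.32, SE 0.081, limma adjusted p = 0.0173). That call was lost without the first middle array (limma adjusted p = 0.0536) or without the second basal array (limma adjusted p = 0.0543). The apical and middle turns differed by -0.20 on the log2 scale (95% interval -0.38 to -0.02), which did not pass after adjustment (limma adjusted p = 0.121).

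Gjb6 was likewise lowest in the apical turn and highest in the basal turn. The apical arrays read 90699, 87917, 81413 and 90052, the middle arrays 103792, 124715, 106100 and 120542, and the basal arrays 145176, 162477, 134919 and 155535. The turns did not overlap in any comparison. The means were 87520 ± 4242, 113787 ± 10393 and 149527 ± 12057 in the apical, middle and basal turns (SD, n = 4). The basal turn was 1.71-fold above the apical turn (log2 difference -0.77, SE 0.078, limma adjusted p = 3.18e-05). The middle turn was 1.30-fold above the apical turn (log2 difference -0.38, SE 0.078, limma adjusted p = 0.0138) and the basal turn 1.31-fold above the middle turn (log2 difference -0.40, SE 0.078, limma adjusted p = 0.00614). All 3 calls of Gjb6 held without any single array.

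The size of both steps depended on how arrays were brought to a common level. Quantile normalization, which gives all arrays one distribution of signals, gave an apical minus basal difference of -0.30 for Gjb2 and -0.54 for Gjb6. Scaling to the spike-in RNA gave -1.01 and -1.26, as it shifts all genes by one amount, -0.49 in this comparison. Both genes were called in this comparison under each scaling.

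As both products can join in one channel, the log2 ratio of Gjb2 to Gjb6 was taken within each array, where scaling by a factor cancels. The apical arrays gave 0.12, 0.23, 0.10 and 0.20, the middle arrays 0.01, -0.08, 0.02 and 0.00, and the basal arrays 0.01, -0.12, -0.13 and -0.09. All apical arrays lay above all others, and the middle and basal arrays overlapped. The ratio was 0.16 ± 0.064 for apical, -0.01 ± 0.043 for middle and -0.08 ± 0.064 for basal arrays (SD, n = 4). The apical turn exceeded the basal turn by 0.25 (exact permutation test, two-sided, p = 0.0286) and the middle turn by 0.17 (exact permutation p = 0.0286), where 0.0286 is the smallest p that 70 splits of 8 arrays can give. Adjusted over the 9 ratio tests made, both p-values were 0.129 in the exact permutation test, which does not pass 0.05. The middle and basal turns differed by 0.07 (exact permutation p = 0.0857, adjusted p = 0.193).

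**Figure D2:**
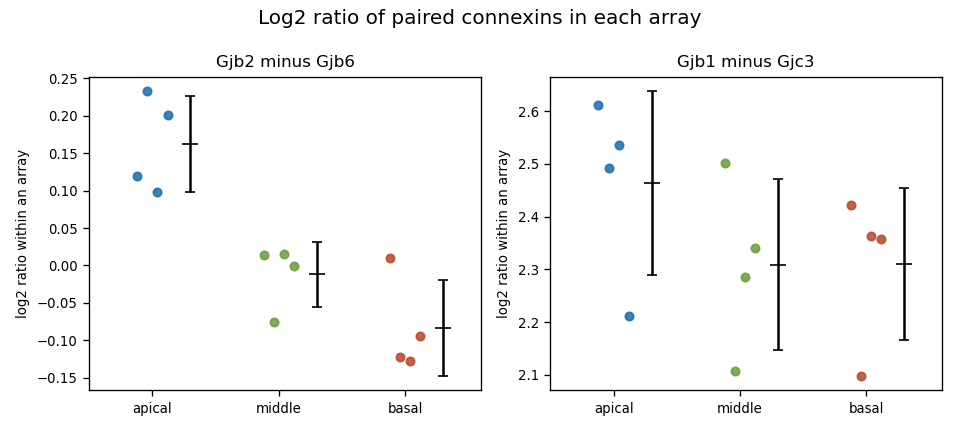
Log2 ratio of Gjb2 to Gjb6 and of Gjb1 to Gjc3 within each array (vertical axes, log2 units, not starting at 0), by turn. Points are arrays and bars give the mean and SD of 4 arrays. The 4 apical arrays of the Gjb2 to Gjb6 ratio lie above the 8 others, and the turns of the Gjb1 to Gjc3 ratio overlap.

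The promoters of Gjb2 and Gjb6 are shown because these neighboring genes moved the same way. They are the 250 bases before the start of each gene in RefSeq, on GRCm38.p6, a different build from that of the probes. Capitals mark GC boxes, searched as GGGCGG and its reverse complement CCGCCC.

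Gjb2, chr14:57104703-57104952, minus strand: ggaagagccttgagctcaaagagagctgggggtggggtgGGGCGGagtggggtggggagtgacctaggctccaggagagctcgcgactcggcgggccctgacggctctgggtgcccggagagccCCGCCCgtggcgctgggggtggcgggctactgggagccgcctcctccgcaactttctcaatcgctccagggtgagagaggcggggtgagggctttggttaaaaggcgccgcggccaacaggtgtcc
Gjb6, chr14:57133612-57133861, minus strand: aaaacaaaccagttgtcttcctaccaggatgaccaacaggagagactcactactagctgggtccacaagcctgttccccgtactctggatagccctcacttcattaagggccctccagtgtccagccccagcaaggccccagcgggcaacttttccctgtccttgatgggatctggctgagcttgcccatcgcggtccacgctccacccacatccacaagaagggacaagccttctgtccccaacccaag

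The Gjb2 promoter held 2 GC boxes and was 69.2% G and C, whereas that of Gjb6 held 0 and was 56.8% G and C. The median over all 32851 promoters of the RefSeq table was 52.4%, and 32.7% of them held a GC box on either strand. Neither held TATAAA, present in 12.4% of all promoters on either strand, or TGAGTCA, an AP-1 element, present in 4.46%. A promoter was matched for 7 of the 8 genes, with 4 for Gjb1. Of the others, Gja1 held 1 AP-1 element, Gja4 and Gja5 1 GC box each, and 1 of the Gjb1 promoters 3 GC boxes and TATAAA.

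Markers of the cell types that carry these channels moved in opposite directions. All 5 fibrocyte markers (Coch, Otos, Pou3f4, Tbx18 and Car3) were higher in the basal than in the apical turn, against 4 with quantile normalization. Their summed signal ranged from 264800 to 288300 in the apical, 355900 to 404100 in the middle and 519000 to 582600 in the basal arrays. That sum came mostly from Otos and Coch, and the median log2 difference of the 5 was -0.42, apical minus basal. Otos differed by -1.28 (limma adjusted p = 5.7e-07) and Coch by -0.57 (limma adjusted p = 1.95e-05) on the log2 scale, apical minus basal. Of 7 organ of Corti supporting cell markers on the array (Sox2, Fgfr3, Prox1, Hey2, Otog, Epyc and Lgr5), 6 were higher in the apical turn and none lower, which became 4 higher and 1 lower with scaling to the spike-in RNA and 5 higher and 1 lower with scaling to the array median or quantile normalization. Their summed signal ranged from 35140 to 44110 in the apical, 22960 to 25040 in the middle and 11740 to 12390 in the basal arrays. That sum was nearly all Epyc, with mean log2 signals of 15.25, 14.44 and 13.47, against 8.68, 8.43 and 7.01 for Sox2. The median log2 difference of these markers was 1.28, apical minus basal, and Lgr5 was not called (-0.08, limma adjusted p = 0.281). All markers of both lists were well above background, and their part in the differences of Gjb2 and Gjb6 was not tested. In the stria vascularis, 3 of 5 marginal cell markers and 6 of 6 intermediate cell and melanocyte markers were higher in the basal than in the apical turn. Of 3 basal cell markers 2 were higher and 1 lower. Quantile normalization gave 5 of 6 intermediate cell markers higher, and 1 basal cell marker higher and 1 lower. Scaling to the spike-in RNA gave 5 of 5 marginal cell markers higher.

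Gja1 was read by 2 probes, of which 1 was called. As the mean of both, the apical arrays read 80.2, 96.5, 104 and 134, the middle arrays 133, 113, 118 and 120, and the basal arrays 178, 141, 142 and 144. The basal arrays lay above all others, and the apical and middle arrays overlapped. The basal turn was 1.48-fold above the apical turn (log2 difference -0.56, SE 0.14, limma adjusted p = 0.00725). The differences from the middle turn were -0.25 for apical minus middle (limma adjusted p = 0.241) and -0.32 for middle minus basal (limma adjusted p = 0.128).

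The called probe lies near the 3′ end and starts at base 2693 of the transcript. It was dim, at 21.7, 26.9, 41.7 and 52.3 in the apical arrays, 43.7, 40.8, 44.9 and 43.8 in the middle arrays, and 76.6, 57.1, 69.8 and 68.7 in the basal arrays. The basal arrays stood clear of the apical ones, with a log2 difference of -1.01 (SE 0.23, limma adjusted p = 0.00619 over all probes). On the first apical array this probe was not well above background, and its 8 usable spots had an SD of 0.82 on the log2 scale, against 0.15 to 0.33 on the other arrays. The probe near the 5′ end, which starts at base 106, read 297, 346, 259 and 344 in the apical arrays, 405, 315, 312 and 327 in the middle arrays, and 415, 346, 288 and 303 in the basal arrays. The turns overlapped throughout, with an apical minus basal difference of -0.11 (SE 0.14, limma adjusted p = 0.581). Within an array, the log2 ratio of the 3′ to the 5′ probe was -3.20 ± 0.61 for apical, -2.96 ± 0.18 for middle and -2.31 ± 0.26 for basal arrays (SD, n = 4, not tested). With the gene taken as the mean of the linear signals, in which the brighter 5′ probe weighs more, the apical minus basal difference was -0.23 and was not called (limma adjusted p = 0.173). Under normexp background correction it was -0.25 (limma adjusted p = 0.0205). Only 1 of 8 bone markers was called between the apical and basal turns, higher in the basal turn, and their summed signal ranged from 1589 to 6203 in the apical, 1983 to 2182 in the middle and 2752 to 3619 in the basal arrays. The part of bone in the Gja1 difference was not tested.

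**Figure D3:**
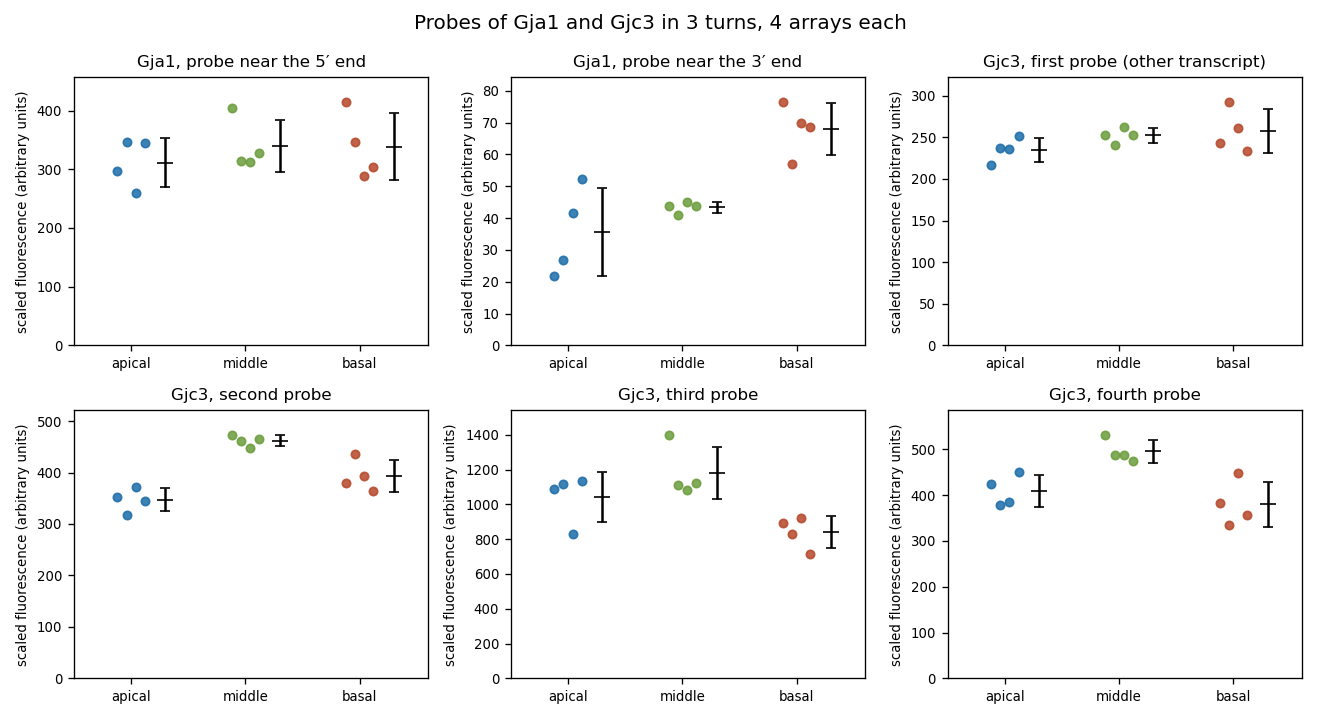
Scaled fluorescence (arbitrary units, vertical axis from 0) of the 2 Gja1 probes and the 4 Gjc3 probes by turn. Points are arrays and bars give the mean and SD of 4 arrays. The Gja1 probe near the 3′ end is highest in the basal turn while the other Gja1 probe overlaps between turns, and all Gjc3 probes but the first lie higher in the middle than in the basal turn.

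Gja4, a connexin of vessel walls, was higher in the basal than in the apical turn. The apical arrays read 354, 378, 367 and 404, the middle arrays 387, 410, 444 and 498, and the basal arrays 435, 490, 513 and 719. The apical and basal arrays did not overlap, and the middle arrays overlapped both. The means were 376 ± 21.5, 435 ± 48.3 and 539 ± 124 in the apical, middle and basal turns (SD, n = 4). The basal turn was 1.41-fold above the apical turn (log2 difference -0.50, SE 0.14, limma adjusted p = 0.0133), a call that held without any single array. The middle turn was not called against the apical turn (log2 difference -0.21, 95% interval -0.51 to 0.09, limma adjusted p = 0.321) or against the basal turn (log2 difference -0.29, 95% interval -0.59 to 0.01, limma adjusted p = 0.156).

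Gja5, expressed in arterial endothelium, was well above background on 1 of 12 arrays, in the apical turn. Its values were 8.02, 23.8, 39.0 and 28.7 in the apical arrays, 24.8, 10.3, 13.4 and 10 in the middle arrays, and 29.4, 33.7, 30.6 and 39.2 in the basal arrays. No fold change is given because the gene was not measured above background in any turn as a whole.

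Of 8 endothelial markers, 4 were higher and 2 were lower in the basal than in the apical turn, against 6 and 0 with quantile normalization, 6 and 1 with scaling to the array median and 7 and 0 with scaling to the spike-in RNA. Their summed signal ranged from 1334 to 1392 in the apical, 1342 to 1447 in the middle and 1455 to 1636 in the basal arrays. Pecam1, an adhesion molecule of endothelium, differed by -0.27 (limma adjusted p = 0.00893) and Kdr, a VEGF receptor, by 0.29 (limma adjusted p = 0.00365), apical minus basal. Of 7 smooth muscle and pericyte markers, 5 were higher in the basal turn and none was lower. Their summed signal ranged from 2155 to 2363 in the apical, 2332 to 2732 in the middle and 3910 to 4507 in the basal arrays, with Cnn1 not well above background. The part of these cells in the Gja4 difference was not tested.

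Gjc3, a connexin of myelinating Schwann cells, was highest in the middle turn. The mean of its 4 probes read 434, 423, 409 and 459 in the apical arrays, 547, 495, 500 and 501 in the middle arrays, and 422, 434, 454 and 384 in the basal arrays. Every middle array lay above every apical and basal array, and the apical and basal arrays overlapped. The means were 431 ± 21.2, 511 ± 24.4 and 423 ± 29.6 (SD, n = 4). The middle turn was 1.21-fold above the basal turn (log2 difference 0.27, SE 0.063, limma adjusted p = 0.0120), and the call held without any single array. The middle turn was 1.18-fold above the apical turn (log2 difference -0.24, SE 0.063, limma adjusted p = 0.0309). This second call was lost without any one of apical arrays 1, 2 and 3 or middle arrays 1, 2 and 4, with limma adjusted p from 0.055 to 0.0862, and with the mean of linear probe signals (limma adjusted p = 0.0762). The apical and basal turns differed by 0.03 (95% interval -0.11 to 0.17, limma adjusted p = 0.773). With scaling to the spike-in RNA, which shifted all genes by -0.27 for middle minus basal, that difference was 0.00 (limma adjusted p = 0.994). The apical minus basal difference, shifted by -0.49 as in all genes, changed sign to -0.46 (limma adjusted p = 0.00198).

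The probes of Gjc3 did not move as one. The third probe read 1091, 1119, 829 and 1137 in the apical arrays, 1401, 1109, 1084 and 1125 in the middle arrays, and 891, 829, 924 and 714 in the basal arrays. The middle and basal arrays did not overlap (log2 difference 0.49, SE 0.13, limma adjusted p = 0.0273). The fourth probe was also higher in the middle than in the basal turn (log2 difference 0.39, SE 0.096, limma adjusted p = 0.0225), and the second missed the threshold (log2 difference 0.23, SE 0.071, limma adjusted p = 0.0506). The second probe differed between the apical and middle turns (log2 difference -0.41, SE 0.071, limma adjusted p = 0.0105). The first probe, on the other transcript, read 217, 237, 235 and 252 in the apical arrays, 253, 241, 263 and 253 in the middle arrays, and 243, 293, 261 and 233 in the basal arrays. Its middle minus basal difference was -0.02 (SE 0.079, limma adjusted p = 0.874). The log2 ratio of the third to the first probe was 2.14 ± 0.23, 2.22 ± 0.18 and 1.70 ± 0.18 in the apical, middle and basal turns (SD, n = 4, not tested).

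Over all 12 connexin probes, 4 were called between the apical and basal turns, 2 between apical and middle and 5 between middle and basal. Of all probes, 34.4%, 5.91% and 13.8% were called in these comparisons.

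Gjb1, the second connexin of myelin, was not called in any comparison. The apical arrays read 2650, 2378, 2372 and 2126, the middle arrays 3096, 2134, 2436 and 2535, and the basal arrays 2258, 1856, 2335 and 1966. All turns overlapped. The log2 differences were 0.18 for apical minus basal (95% interval -0.08 to 0.44, limma adjusted p = 0.263), -0.09 for apical minus middle (95% interval -0.35 to 0.17, limma adjusted p = 0.633) and 0.27 for middle minus basal (95% interval 0.01 to 0.53, limma adjusted p = 0.124). Scaling to the spike-in RNA, with its shift of all genes by -0.49, turned the first of these to -0.31 (limma adjusted p = 0.0329).

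The log2 ratio of Gjb1 to Gjc3 within an array was 2.46 ± 0.17 for apical, 2.31 ± 0.16 for middle and 2.31 ± 0.14 for basal arrays (SD, n = 4). It did not differ detectably between apical and basal (0.15, exact permutation p = 0.257), apical and middle (0.15, exact permutation p = 0.286) or middle and basal turns (-0.0014, exact permutation p = 1). All 7 Schwann cell and myelin markers on the array, among them Pmp22, Mbp, Mag, Prx and Egr2, were higher in the apical and in the middle turn than in the basal turn, and none was called by limma between the apical and middle turns, with 0 at an unadjusted p under 0.05. With scaling to the spike-in RNA, 1 of the 7 was higher in the apical and 6 in the middle turn than in the basal turn. Pmp22, a membrane protein of peripheral myelin, differed by 0.59 between the apical and basal turns (limma adjusted p = 0.0178) and by 0.72 between the middle and basal turns (limma adjusted p = 0.0136). The summed signal of these markers ranged from 13450 to 15050 in the apical, 14230 to 17190 in the middle and 6596 to 12690 in the basal arrays. Their part in the values of Gjb1 and Gjc3 was not tested.

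Gjc1 was higher in the middle than in the basal turn. The apical arrays read 388, 437, 355 and 413, the middle arrays 453, 479, 402 and 437, and the basal arrays 339, 330, 361 and 394. The middle and basal arrays did not overlap, and the apical arrays overlapped both. The middle turn was 1.24-fold above the basal turn (log2 difference 0.32, SE 0.082, limma adjusted p = 0.0194). This call was lost without any one of middle arrays 1 and 2 or basal arrays 1 and 2, with limma adjusted p from 0.0506 to 0.0613. It was also lost with scaling to the array median (limma adjusted p = 0.0548) and to the spike-in RNA (limma adjusted p = 0.74). The apical turn differed by 0.16 from the basal turn (limma adjusted p = 0.149) and by -0.15 from the middle turn (limma adjusted p = 0.218), and the first of these turned to -0.33 with scaling to the spike-in RNA (limma adjusted p = 0.00879). Of 7 spiral ganglion neuron markers, all were higher in the middle than in the basal turn (6 with any of the other scalings), with a summed signal of 22560 to 40180 in the middle and 4656 to 20670 in the basal arrays. Smooth muscle and pericyte markers went the other way, with 5 of 7 higher in the basal than in the middle turn and none lower, and a summed signal of 2332 to 2732 in the middle and 3910 to 4507 in the basal arrays. The part of these cells in the Gjc1 difference was not tested.

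**Figure D4:**
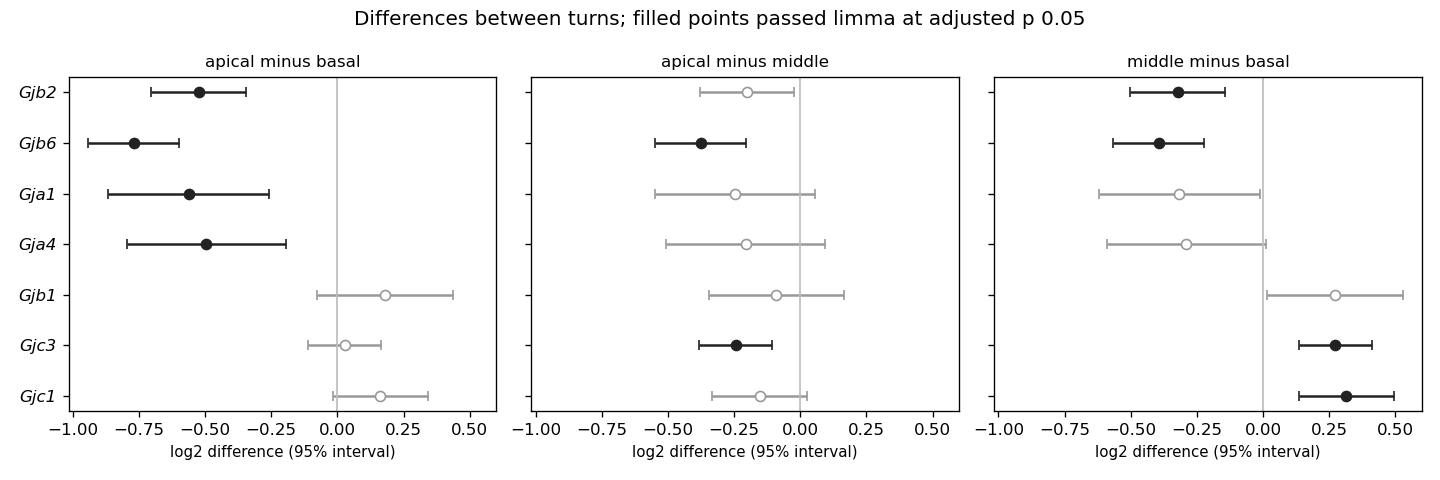
Log2 differences between turns (horizontal axis) of the 7 connexin genes above background, with 95% intervals from limma over 12 arrays. Filled points passed an adjusted p of 0.05. Gjb2, Gjb6, Gja1 and Gja4 lie left of 0 between the apical and basal turns, and Gjc3 and Gjc1 lie right of 0 between the middle and basal turns.

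The rest of the family was mostly dim. Of 15 other connexins and pannexins, 14 were on the array, and 8 of these, among them Gja3, Gja6, Gjb5, Gjd3 and Gjd4, were not well above background on all arrays of any turn. Between the apical and basal turns 2 of the 14 were called, both higher in the apical turn. Of all genes, 39.2% were called here, 17.6% higher in the apical turn. With scaling to the spike-in RNA 5 of the 14 were called, all higher in the basal turn, where 77.5% of all genes were called. Gjd2, the connexin of electrical synapses between neurons, averaged 123 ± 14.0, 126 ± 26.2 and 79.0 ± 30.9 in the apical, middle and basal turns (SD, n = 4). It was 1.63-fold above the basal turn in the apical turn (log2 difference 0.71, SE 0.24, limma adjusted p = 0.0352). These turns overlapped, at 103 to 136 in the apical and 51.1 to 123 in the basal arrays. Panx2, a pannexin of neurons, averaged 300.0 ± 25.1, 333 ± 81.4 and 176 ± 71.2 and was 1.79-fold higher in the apical than in the basal turn (log2 difference 0.84, SE 0.24, limma adjusted p = 0.0148). Its arrays overlapped too, at 272 to 327 in the apical and 117 to 280 in the basal turn. The 2 calls fell to 1 with quantile normalization, scaling to the array median or analysis of variance. They also fell to 1 without any one of apical arrays 1, 3 and 4 or basal arrays 2 and 4. Between the middle and basal turns Panx2 (log2 difference 0.97, SE 0.24, limma adjusted p = 0.0152) and Panx1, a widely expressed pannexin (log2 difference 0.52, SE 0.15, limma adjusted p = 0.0326), were higher in the middle turn. Of all genes, 11.7% were higher in the middle than in the basal turn. None of the 14 was called between the apical and middle turns by limma or by analysis of variance. At an unadjusted limma p under 0.05 there was 1, Gjb5. In that comparison limma called 12% of all genes. The median log2 difference of the 14 was -0.01 for apical minus basal, -0.19 for apical minus middle and 0.25 for middle minus basal.

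Genes whose products anchor, move or degrade connexins were listed with earlier results of these data known. All 12 were well above background, against 16511 of 19505 genes. The shares of all genes given here are therefore not a matched comparison. Of 12 such partners between the apical and basal turns, 8 were higher in the apical turn and 1 in the basal turn. Of all genes, 17.6% and 21.6% were higher in these turns. The median log2 difference of the partners was 0.26. Scaling to the spike-in RNA, which shifts all genes by -0.49 at the median, gave 1 partner higher in the apical and 6 in the basal turn. Under that scaling 77.5% of all genes were called. Tjp1, the scaffold ZO-1 that binds connexin tails, averaged 1212 ± 55.6, 961 ± 50.5 and 846 ± 17.3 in the apical, middle and basal turns (SD, n = 4), with an apical minus basal difference of 0.52 (SE 0.052, limma adjusted p = 3.05e-05). Nov, a secreted matrix protein that binds Cx43, averaged 292 ± 60.3, 118 ± 15.0 and 114 ± 27.9 and was 2.59-fold above the basal turn in the apical turn (log2 difference 1.37, SE 0.19, limma adjusted p = 0.000248). Cnst, which directs connexins to the membrane, differed by 0.37, Dbn1, an actin-binding partner, by 0.76, Cav1, the caveolar coat protein, by 0.69, Cdh2, N-cadherin, by 0.69, and Nedd4, a ubiquitin ligase, by 0.14. Ctnnb1, the beta-catenin that links cadherins to the cytoskeleton, was higher in the basal turn (log2 difference -0.35, SE 0.066, limma adjusted p = 0.00169). Between the apical and middle turns 5 partners were called, all higher in the apical turn (Tjp1, Cnst, Cav1, Nov and Nedd4). Of all genes, 4.42% were higher in the apical turn in this comparison. Between the middle and basal turns Tjp1, Cnst, Dbn1, Cav1 and Cdh2 were higher in the middle turn and Ctnnb1 was higher in the basal turn. Here 11.7% of all genes were higher in the middle and 9.21% in the basal turn. The medians of the 12 partners were 0.12 for apical minus middle and for middle minus basal.

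Likeness to each called connexin was measured as the root mean square difference of centered log2 values over the 12 arrays, among 14746 genes above background. Nearest to Gjb2 were Lman2 (0.049), Sumf1 (0.049) and Jam3 (0.052), where the spread of Gjb2 about its own mean was 0.238. Nearest to Gjb6 were Pla2g16 (0.038), Srp9 (0.045) and Deb1 (0.046), against a spread of 0.329. For Gja4 the nearest were Nat6 (0.061), Hsd3b7 (0.082) and Cyp4f14 (0.083), and for Gjc3 E2f6 (0.050), Gabarapl1 (0.051) and Hspa4l (0.063), against spreads of 0.271 and 0.141. For Gjc1 they were Piwil4 (0.070), Cts8 (0.081) and Hpx (0.084), and for Gja1 Ajap1 (0.139), Zfp296 (0.140) and Pcp4l1 (0.144), against spreads of 0.163 and 0.293.

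Before scaling, the 75th percentile of intensity was 575.9 to 722.1 in the apical, 534.6 to 702.2 in the middle and 615.1 to 701.1 in the basal arrays, and 77.4% to 81.4% of spots were well above background. Within a turn, genes had a median SD of 0.106, 0.126 and 0.115 on the log2 scale for apical, middle and basal. Of all genes called between the apical and basal turns, 3440 were higher in the apical and 4205 in the basal turn, and the split was 2267 to 6290 with scaling to the array median and 775 to 14334 with scaling to the spike-in RNA. With spike-in scaling, the split was 213 higher in the apical to 7717 in the middle turn (863 to 1480 otherwise) and 754 higher in the middle to 6574 in the basal turn (2275 to 1796 otherwise). With scaling to the array median it was 661 to 2888 and 1762 to 2863 in these comparisons, and quantile normalization gave 2920 to 4992 between apical and basal and 1782 to 2186 between middle and basal.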

How the data were processed

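Spot intensities of Agilent single-color exon arrays were taken as deposited, which the authors made with Agilent Feature Extraction 10.7.3.1 and which carry probe positions on mm9. The authors' processed intensity was background-subtracted and not normalized between arrays, and their table of the whole series repeated these values. From 180880 spots per array, 7914 controls and 622 spots marked as outliers on any array were dropped, which left 165865 probes. In R 4.3.3 with data.table (version 1.17.8), each array was scaled to a 75th percentile of 641.3, log2 transformed, and repeated spots and then probes of a gene were averaged, without a filter on low values or a pseudocount.

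The 12 arrays, 4 per turn, were compared with limma 3.58.1 over 19505 genes or 165865 probes, and ratios of paired connexins with an exact permutation test. The ratio of Gja4 to Gja5, among the 9 ratio tests, was not read because Gja5 was near background. Simulated data for the apical versus basal comparison held 100 changed features per size of change. Over 19505 genes, 76 of 100 changed by 0.75 on the log2 scale and 96 of 100 changed by 1.5 were recovered, with 12 false calls. Over 165865 probes, 49 of 100 and 84 of 100 were recovered, with 8 false calls. In the data, however, 39.2% of all genes were called, and the simulated noise was normal. These rates therefore do not carry over to the data, and changes under 0.75 were not simulated. The number of arrays limits the precision. The members and all gene lists were chosen with earlier results of these data known. Named were all members, other connexins, pannexins and partners that were called or lay below background, and the 3 genes nearest to each called member. Some genes of these lists are counted but not reported here by name. Markers of hair cells, red cells and macrophages were also tallied: 6 of 7 hair cell markers were higher in the apical than in the basal turn, 0 of 3 red cell markers were called by limma, with 0 at an unadjusted p under 0.05, and 4 of 4 macrophage markers were higher in the basal turn. Of 7 neuron markers 6 were higher in the apical and 1 in the basal turn. Alternatives changed the scaling, background correction, probe summary, filters, test and arrays included.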

Additional observations from a re-analysis of the deposited data

Results flagged for a closer look

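A single array stood apart from the other 3 of its turn in 5 of 45 groups of 4 arrays tested with Dixon's gap-to-range ratio at its 95% critical value, where chance flags about 1 in 20 groups. Gjb2 was low on basal array 3 (ratio 0.87), and Gja1 was high on basal array 1 (0.89). Gjc3 was high on middle array 1 (0.89), and the third of its probes was low on apical array 3 (0.87) and high on middle array 1 (0.858).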

How the results depend on the processing

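Between the apical and basal turns, Gjb2, Gjb6 and Gja4 were called under all 15 alternatives that kept every array and without any single array, and Gja1 under all but the mean of linear probe signals (-0.225). Scaling to the spike-in RNA gave the largest changes. Between apical and basal 8 members, Gja5 near background among them, and 10 member probes were called. Of all genes 77.5% and of all probes 63.3% were called there. Between apical and middle 5 members and 5 member probes were called, against 40.7% of all genes and 19.6% of all probes. This scaling shifts all genes by one amount per comparison, -0.4869 for apical minus basal and -0.2711 for middle minus basal. With that shift the sign turned for Gjb1 (-0.3061), Gjc3 (-0.4588) and Gjc1 (-0.3255) between apical and basal. It turned for Gjb1 (-0.0003) between middle and basal. The scaling also gave 5 other connexins and pannexins between apical and basal, 2 between apical and middle, and 3 partners between middle and basal. Scaling to the array median gave 1, 1 and 3 for these and reversed Gjc3 between apical and basal (-0.0888), as did quantile normalization (-0.0139), the median of probes (-0.0352), and leaving out apical array 4 (-0.0025) or basal array 4 (-0.0183), in a range of -0.0183 to 0.0627 over single arrays left out. Gjb1 between apical and middle reversed without middle array 1 (0.0076), in a range of -0.1713 to 0.0076. With the mean of linear signals 1 member was called between apical and middle. Of all genes, 744 were then higher in the apical and 1669 in the middle turn. With only the arrays of the compared turns, 1 member probe was called between apical and middle. Other connexins and pannexins gave 1 call between apical and basal with quantile normalization and with the methods' analysis of variance. Between middle and basal they gave 1 with these, with the median of probes and with only the compared turns, and 4 with normexp and with only probes above background. The median of probes gave 3 partners there. The Gjb2 to Gjb6 ratio between apical and middle was 0.1598 with normexp (exact permutation p = 0.0571). The Gjb1 to Gjc3 ratio between middle and basal reversed with 16 added before log2 (0.0042), normexp (0.0362) and quantile normalization (0.081). The causes of the other changes were not tested.

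Leaving out 1 array at a time gave 4 to 4, 1 to 2 and 2 to 5 members called between apical and basal, apical and middle, and middle and basal. It gave 4 to 5, 1 to 2 and 1 to 7 member probes, 1 to 3, 0 to 1 and 1 to 3 other connexins and pannexins, and 7 to 9, 3 to 5 and 2 to 6 partners. The lowest counts between middle and basal came without basal array 2 (2 members, 2 partners) or middle array 1 (1 member probe). Calls over all 19505 genes moved as well. With all arrays, 2275 were higher in the middle and 1796 in the basal turn. These became 1492 and 1167 without basal array 2, 1582 and 1132 without middle array 1, and 3167 and 1585 without middle array 3. Between apical and middle, 863 higher in the apical and 1480 in the middle turn became 431 and 534 without apical array 2. Without middle array 3 they became 956 and 2583. Between apical and basal, 3440 higher in the apical and 4205 in the basal turn became 2854 and 3650 without basal array 2. Shares of all probes were not tallied for single arrays left out. The Gjb1 to Gjc3 ratio between middle and basal ranged from -0.0721 to 0.0656.

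Samples of different turns share a number but the labels do not tie it to a mouse. Deviations of same-numbered arrays correlated at -0.082 to 0.373 over 12 pairs (mean 0.147), 7 of them over 0.1. Pairs with different numbers gave -0.432 to 0.430 over 36 pairs (mean -0.048), 7 of them over 0.1. Among the 4 arrays of another turn, an array's best match had its own number in 14 of 24 cases. The main tests nevertheless treated the 12 arrays as unpaired. With the number as a replicate block, 4, 3 and 6 members were called in the 3 comparisons, where 41.9%, 17% and 26% of all genes were, the added calls being Gjb2 between apical and middle (limma adjusted p = 0.0334) and Gjb1 and Gja4 between middle and basal (0.0445 and 0.0366). Probe counts with the block were 4, 2 and 5, against 36.3%, 7.86% and 16.8% of all probes. Signals near background limit Gja5 and the 3′ probe of Gja1.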
